A study of Homo sapiens with 10 samples.

Results

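The Mediator complex genes were examined in HEK293FT cells, a readily transfected human embryonic kidney line. They were chosen by name: every row of the expression table named MED followed by digits and an optional L, or named CDK8, CDK19 or CCNC. This gave 31 genes of 19301 named rows. Of the 33 gene names that make up human Mediator by this naming, MED26 was measured only in a joint row with CALR3, CHERP and SLC35E1, and no row is named CDK19. A row named CDC2L6, which RefSeq lists as a synonym of CDK19, lies outside the naming rule and is given separately. Every one of the 31 genes had a mean of at least 1 FPKM (fragments mapped to a gene, scaled to its transcript length and to the size of the library), the limit set for testing, so all 31 were tested.

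All cells carried integrated Gaussia and Cypridina luciferase reporters and received a plasmid for dCas9-VP64, a Cas9 without nuclease activity joined to an activation domain. The 5 groups have 2 libraries each. CasVP received 59 ng of the dCas9-VP64 plasmid and no guide. The groups sgRNA, INT, P4P6 and TOP1 also received 11.6 ng of a plasmid for the guide of that name, transcribed from a U6 promoter and directed at the Gaussia reporter. Wells held 125000 plated cells, carrier plasmid made up 679.4 ng of each mix, Lipofectamine 2.25 uL, and RNA was collected 3 days later. Transfection was transient, and RNA came from all the cells of a well, whether or not they took up plasmid. In such bulk RNA, fewer cells expressing a gene and less RNA per cell cannot be told apart. Whether replicates were separate cultures is not labelled, and p-values therefore measure only the spread between these libraries, which may be technical. Libraries are named by group and by the index 0 or 1 in the column name, which is not a replicate number of the labels.

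Mediator is a large coactivator assembly that bridges DNA-bound activators and RNA polymerase II. It is described as a head, a middle and a tail module joined by the scaffold subunit MED14. Activators mostly touch the tail, and the head and middle contact the polymerase. A separable kinase module, built of MED12, MED13, cyclin C and CDK8 or their paralogs, binds the core and regulates its contact with the polymerase. VP64 is a tandem repeat of the activation segment of the herpesvirus protein VP16, which is known to bind MED25 and MED17. Schemes differ on MED27 to MED30, which are counted here with the tail.

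The Gaussia transcript stood at 23.8 and 22.7 FPKM in CasVP and between 163 and 857 FPKM in the 8 guide libraries. The dCas9-VP64 transcript ranged from 14.6 to 25.9 FPKM, lowest in CasVP. Of 6 genes typical of HEK293 cells, 5 had a mean of at least 1 FPKM, and PAX2 lay just under it at 0.926. Of 11 markers of blood, endothelium, fibroblasts, liver and mature kidney, 10 were found by name. None reached a mean of 1 FPKM, COL1A2 and UMOD were at 0 in every library, and their summed level was 0.461 to 0.933 FPKM. No total of reads stands beside the values. From the smallest steps in the lowest rows, depth relative to CasVP replicate 0 was estimated at 0.694 (P4P6 replicate 0) to 1.02 (TOP1 replicate 0). These estimates are rough, since only 23.5 to 30.1% of the rows used lay within 0.1 log2 of the estimate for their library.

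All 31 genes were detected in every library, and their levels spanned a range of mean FPKM from 3.13 for MED12L to 73.8 for MED28. FPKM is scaled to transcript length, so levels of different genes can be set side by side, but only roughly. The scaling does not remove effects of base composition or of reads shared between genes. The summed level of the 31 genes lay between 716 FPKM (P4P6 replicate 1) and 760 FPKM (CasVP replicate 0). For a typical member the highest library was 1.23 times the lowest (median over the 31), against 1.24 times over all tested rows that were above 0 in every library. The largest such ratio was that of MED12L at 1.53, and the smallest that of MED9, a middle subunit, at 1.10. The Mediator genes were thus about as even across the libraries as genes in general.

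**Figure D1:**
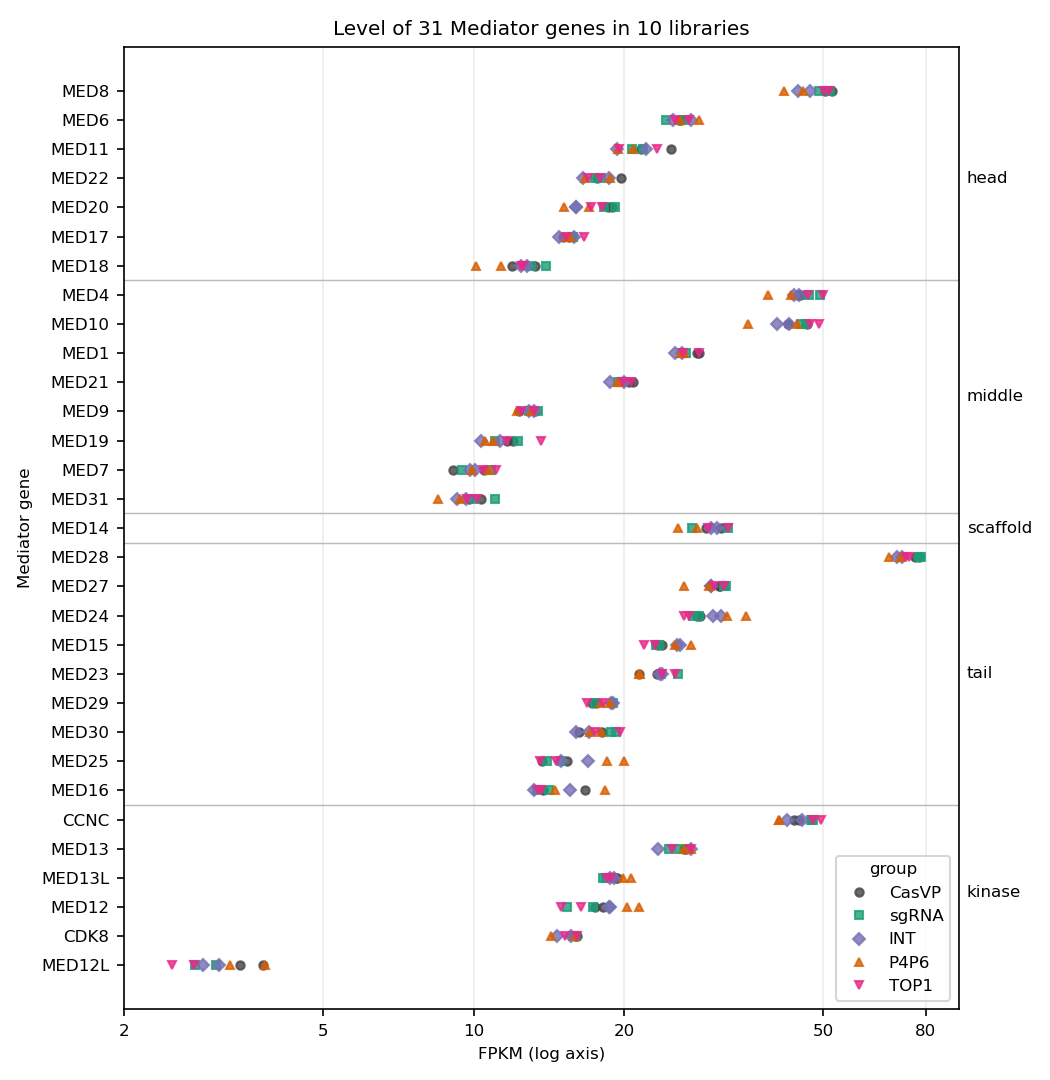
FPKM (log axis) of each of the 31 Mediator genes in 10 libraries, ordered by module and mean level, with the group shown by colour and marker shape. MED12L lies alone at 2.49 to 3.83 FPKM, and the P4P6 triangles stand at the upper end for MED25, MED24 and MED12 and at the lower end for MED18 and MED4.

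The 7 head genes had a median level of 17.8 FPKM. MED8, which tethers MED18 and MED20 to the rest of the head, was the most abundant of them at a mean of 48.3 FPKM, and MED18 the least at 12.4. MED17, the central head subunit and a known contact of VP16, was even over the groups. It stood at 15.5 and 15.1 FPKM in CasVP, 15.8 and 15.7 in sgRNA, 14.8 and 15.8 in INT, 15.4 and 15.5 in P4P6 and 16.6 and 15.3 in TOP1. The 8 middle genes measured on their own rows had a median of 16.4 FPKM, from MED31 at 9.77 to MED4 at 45.2. MED1, through which nuclear receptors bind, stood at 27.9 and 28.2 FPKM in CasVP, 26.1 and 26.5 in sgRNA, 25.3 and 26.0 in INT, 25.9 and 26.3 in P4P6 and 26.1 and 28.3 in TOP1. All guide libraries but TOP1 replicate 1 lay below both CasVP libraries. MED9, the most even member, was at 13.3 and 12.3 FPKM in CasVP, 12.9 and 13.4 in sgRNA, 12.9 and 13.2 in INT, 13.03 and 12.2 in P4P6 and 13.2 and 12.4 in TOP1, with all groups overlapping.

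MED14, the scaffold, was at 31.2 and 29.1 FPKM in CasVP, 32.2 and 27.4 in sgRNA, 30.7 and 29.8 in INT, 25.6 and 27.9 in P4P6 and 32.3 and 29.4 in TOP1. Its P4P6 and sgRNA values overlap. The 9 tail genes had the second highest median, 23.3 FPKM, after the single scaffold gene, and MED28 and MED16 were their extremes at 73.8 and 14.7 FPKM. MED23, a tail subunit that the adenoviral E1A protein binds, was at 23.3 and 21.4 FPKM in CasVP, 25.6 and 23.7 in sgRNA, 23.5 and 23.8 in INT, 21.5 and 21.4 in P4P6 and 25.3 and 23.7 in TOP1. MED15, a tail subunit known as a contact of several activators, was at 23.8 and 23.3 FPKM in CasVP, 23.1 and 23.5 in sgRNA, 25.5 and 25.9 in INT, 27.2 and 25.3 in P4P6 and 23.0 and 21.9 in TOP1. Both INT and both P4P6 libraries lay above both CasVP libraries for MED15.

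The kinase module showed one large gap between paralogs. MED12, which activates the kinase through cyclin C, had a mean of 17.8 FPKM, and its paralog MED12L a mean of 3.13. The paralogs MED13 and MED13L, which tie the kinase module to the core, were closer, at means of 25.9 and 19.1 FPKM. MED13 was at 26.3 and 26.6 FPKM in CasVP, 24.5 and 25.7 in sgRNA, 23.4 and 27.2 in INT, 26.3 and 27.2 in P4P6 and 24.9 and 27.2 in TOP1. Its sgRNA libraries lay below both CasVP libraries, and INT held both its lowest library and one of its highest. MED13L was at 19.4 and 19.2 FPKM in CasVP, 18.1 and 18.4 in sgRNA, 19.1 and 18.7 in INT, 20.6 and 19.8 in P4P6 and 18.4 and 18.8 in TOP1. The P4P6 libraries of MED13L were above all others. The kinase gene CDK8 was at 15.95 and 16.1 FPKM in CasVP, 16.01 and 15.8 in sgRNA, 15.6 and 14.7 in INT, 14.3 and 15.9 in P4P6 and 15.2 and 16.1 in TOP1, with P4P6 replicate 0 the lowest. The CDC2L6 row stood at 9.68 to 11.9 FPKM, below CDK8 in every library. CCNC, which encodes the cyclin partner of both kinases, was higher than either, at 40.7 to 49.4 FPKM. Paralogs can share reads, and how the authors' counting split such reads is not given in the sources used here.

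The other members are given by their range over the 10 libraries. In the head, MED6 lay between 24.2 and 28.2 FPKM, MED11 between 19.4 and 24.8 and MED22 between 16.5 and 19.7. In the middle, MED10 lay between 35.4 and 48.9 FPKM, MED21 between 18.7 and 20.8, MED19 between 10.3 and 13.7, MED7 between 9.10 and 11.1 and MED31 between 8.49 and 11.003. MED29, counted with the tail, lay between 16.8 and 18.98 FPKM. MED10 had its lowest value in P4P6 replicate 1, well under the 44.2 FPKM of P4P6 replicate 0.

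The comparison of each guide with CasVP asks what a guide changed beyond the reporter, here in the coactivator that VP64 works through. No Mediator gene passed in any of them with limma at an adjusted p of 0.05. Over all 11574 rows tested, the share that passed was 0.0173% for sgRNA, 0.0173% for INT, 0.00864% for P4P6 and 0.00864% for TOP1, and 0.0173% for all guides together. The rows that passed were only the Gaussia transcript and, for sgRNA, INT and all guides, the dCas9-VP64 transcript. No gene of the cells themselves passed. At an unadjusted p under 0.05 there were 2 members with sgRNA, 7 with INT, 10 with P4P6, 3 with TOP1 and 4 with all guides. Over all rows that share was 6.02%, 8.86%, 22.2%, 9.22% and 7.43%. The median log2 difference of the 31 genes was -0.01 with sgRNA, -0.05 with INT, -0.07 with P4P6 and -0.02 with TOP1, against 0.00, 0.00, -0.01 and 0.00 over all rows. These comparisons share the CasVP libraries.

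The estimates themselves were small. On the log2(FPKM + 1) scale, which understates the change of low genes, they ran from -0.23 (MED12L) to 0.14 (MED30) with sgRNA. With INT the range was -0.21 (MED20) to 0.13 (MED25), with P4P6 -0.23 (MED8) to 0.38 (MED25), and with TOP1 -0.34 (MED12L) to 0.13 (CCNC). The 95% confidence interval farthest from 0 reached 0.44 with sgRNA, 0.41 with INT, 0.56 with P4P6 and 0.55 with TOP1. Changes of any member beyond these sizes lay outside the intervals.

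MED12L showed the lowest estimate with sgRNA and with TOP1 and the second lowest with INT. It stood at 3.41 and 3.79 FPKM in CasVP, 2.77 and 3.05 in sgRNA, 2.88 and 3.09 in INT, 3.25 and 3.83 in P4P6 and 2.76 and 2.49 in TOP1. The sgRNA, INT and TOP1 libraries all lay below both CasVP libraries, whereas those of P4P6 overlapped them. The log2 difference was -0.23 with sgRNA (SE 0.09, limma adjusted p = 0.791), -0.21 with INT (adjusted p = 0.56) and -0.34 with TOP1 (adjusted p = 0.501). None passed.

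MED20, a head subunit that pairs with MED18, was at 18.5 and 18.9 FPKM in CasVP, 19.2 and 18.2 in sgRNA, 16.0 and 16.0 in INT, 17.0 and 15.2 in P4P6 and 17.2 and 18.0 in TOP1. It had the lowest estimate with INT (-0.21, SE 0.06, limma adjusted p = 0.507), and both INT libraries lay below every CasVP, sgRNA and TOP1 library. MED30, a metazoan subunit counted with the tail, was at 18.0 and 16.2 FPKM in CasVP, 18.8 and 19.2 in sgRNA, 17.0 and 16.0 in INT, 17.1 and 18.0 in P4P6 and 19.6 and 17.5 in TOP1. The sgRNA values lay above both CasVP values (0.14, SE 0.07, adjusted p = 0.791), and those of TOP1 overlapped them. MED16, a tail subunit, was at 16.7 and 13.8 FPKM in CasVP, 13.4 and 14.2 in sgRNA, 13.2 and 15.5 in INT, 18.3 and 14.6 in P4P6 and 13.6 and 13.4 in TOP1. Its CasVP libraries differed by more than the means of CasVP and sgRNA did, and the estimate of -0.13 with sgRNA (SE 0.11, adjusted p = 0.844) did not pass. MED23 had estimates of 0.14 with sgRNA (SE 0.06, adjusted p = 0.791) and 0.13 with TOP1 (adjusted p = 0.544).

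**Figure D2:**
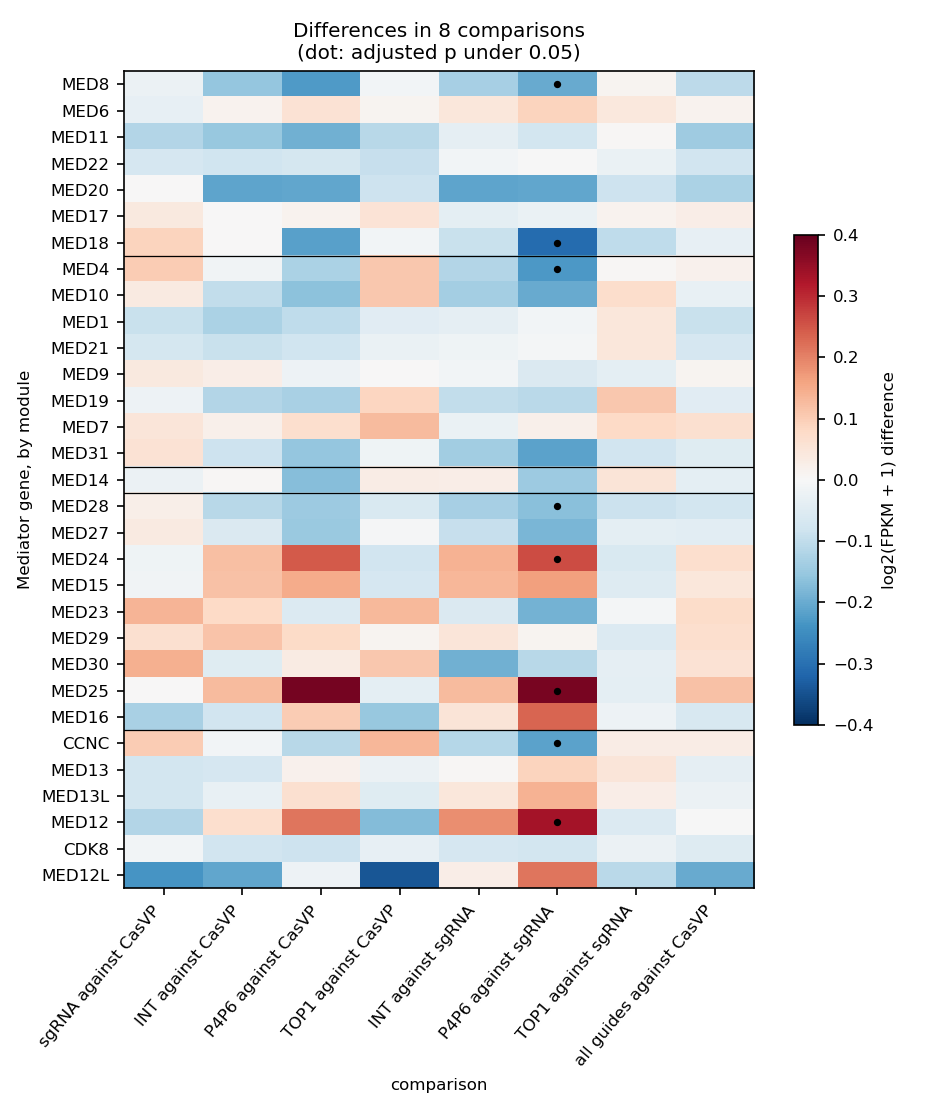
Log2(FPKM + 1) differences (colour, from -0.4 to 0.4) of the 31 Mediator genes, ordered by module, in 8 comparisons, with a dot where the limma adjusted p was under 0.05. The 8 dots all stand in the comparison of P4P6 with sgRNA, and MED25 has its deepest red in both comparisons of P4P6.

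Between guides the picture differed for P4P6. The comparison with the guide labelled sgRNA asks what the other guides changed relative to that one. P4P6 against sgRNA gave 8 Mediator genes that passed of 31 (25.8%), where 11.5% of all rows did. MED25, MED12 and MED24 were higher with P4P6 (4.33% of all rows passed in this direction), and MED18, MED4, CCNC, MED8 and MED28 were lower (7.17% of all rows). The share over all rows includes many rows of low level. With rows limited to a mean of at least 5 FPKM, which leaves out MED12L, 9 members passed and 1457 of 9127 rows did. INT and TOP1 each gave 0 members against sgRNA with limma, where 0.00864% and 0.00864% of all rows passed, in each case the Gaussia row alone. At an unadjusted p under 0.05 there were 8 members with INT, where 8.77% of all rows had such a p, and 0 with TOP1, where 1.68% did. The median size of the log2 difference, without its sign, was 0.16 over the 31 genes with P4P6 against sgRNA and 0.11 over all rows. At an unadjusted p under 0.05 there were 16 members with P4P6 against sgRNA, where 30.3% of all rows had such a p. Between the threshold and an adjusted p of 0.1 were 6 more members, and the share of all rows in this band was not computed. Of these 6 members, MED20 (limma adjusted p = 0.0548), MED23 and MED27 (0.065 for both) and MED31 (0.0746) had estimates below 0, and MED15 (0.0684) and MED13L (0.0819) above 0. Relative depth was 0.694 and 0.797 in P4P6 and 0.705 and 0.938 in sgRNA, and the SD of the replicate difference over the members was highest in P4P6 (0.13, against 0.09 to 0.10 in the other groups). The part of either in the result was not tested.

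MED25, which carries the domain that VP16 binds, had the largest difference. It was at 19.9 and 18.4 FPKM in P4P6 and 14.0 and 15.0 in sgRNA, with 13.7 and 15.3 in CasVP, 15.0 and 16.9 in INT and 14.6 and 13.6 in TOP1. Both P4P6 libraries lay above all the others. The level was 32.3% higher with P4P6 than with sgRNA (log2 difference 0.38, SE 0.08, limma adjusted p = 0.025).

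MED12 was at 20.2 and 21.4 FPKM in P4P6 and 15.3 and 17.3 in sgRNA, with 17.5 and 18.1 in CasVP, 18.7 and 18.6 in INT and 14.9 and 16.4 in TOP1. It was highest in both P4P6 libraries and lowest in TOP1 replicate 0. It rose by 27.3% over sgRNA (0.33, SE 0.07, adjusted p = 0.025). MED24, a tail subunit next to MED23 and MED16, was at 32.1 and 34.9 FPKM in P4P6 and 27.4 and 28.2 in sgRNA, with 28.3 and 27.9 in CasVP, 31.2 and 30.1 in INT and 26.9 and 26.3 in TOP1. The INT libraries came next below those of P4P6, and the rise over sgRNA was 20.6% (0.26, SE 0.05, adjusted p = 0.025).

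Among the genes that fell, MED18 differed most. This head subunit was at 11.3 and 10.1 FPKM in P4P6 and 13.9 and 13.001 in sgRNA, with 13.3 and 11.9 in CasVP, 12.8 and 12.4 in INT and 12.6 and 12.4 in TOP1. Both P4P6 libraries lay below all the others, and the log2 difference from sgRNA was -0.31 (SE 0.07, limma adjusted p = 0.0307). MED4, a middle subunit, was at 43.1 and 38.7 FPKM in P4P6 and 49.3 and 46.9 in sgRNA, with 44.9 and 44.6 in CasVP, 44.7 and 43.7 in INT and 49.96 and 46.6 in TOP1. It was again lowest in P4P6 (-0.23, SE 0.06, adjusted p = 0.0384). The libraries with sgRNA and TOP1 lay above those of CasVP.

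CCNC had close replicates: 40.8 and 40.7 FPKM in P4P6 and 47.6 and 47.2 in sgRNA, with 44.7 and 43.6 in CasVP, 45.3 and 42.3 in INT and 49.4 and 47.5 in TOP1. The P4P6 libraries were the lowest, and the difference from sgRNA was -0.21 (SE 0.05, limma adjusted p = 0.0275). MED8 was at 45.6 and 41.6 FPKM in P4P6 and 51.5 and 49.0 in sgRNA, with 52.0 and 50.3 in CasVP, 47.0 and 44.5 in INT and 50.04 and 51.3 in TOP1 (-0.20, SE 0.06, adjusted p = 0.0454). P4P6 and INT overlapped for MED8. MED28, the most abundant Mediator mRNA, was at 67.5 and 71.3 FPKM in P4P6 and 77.8 and 78.4 in sgRNA, with 77.6 and 76.1 in CasVP, 71.9 and 70.2 in INT and 73.1 and 74.0 in TOP1 (-0.17, SE 0.04, adjusted p = 0.0381). For MED28 too P4P6 overlapped INT.

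**Figure D3:**
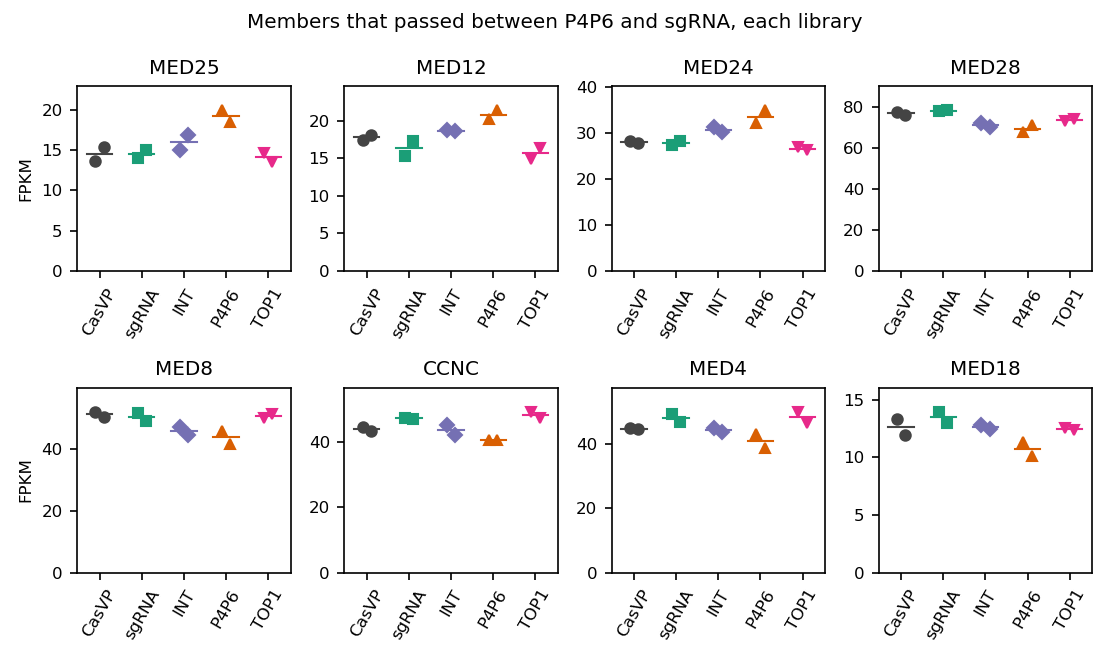
FPKM (linear axis from 0) of the 8 Mediator genes that passed between P4P6 and sgRNA, with a marker for each of 2 libraries per group and a line at the group mean. MED25, MED12 and MED24 are highest in P4P6, and CCNC, MED4 and MED18 lowest, while MED28 and MED8 overlap INT.

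The comparison of P4P6 with CasVP shares the P4P6 libraries with this one, and none of the 8 genes passed there. MED25 was at 0.38 (SE 0.08, limma adjusted p = 0.075), MED24 at 0.24 (adjusted p = 0.075) and MED12 at 0.21 (adjusted p = 0.122). MED8 was at -0.23 (SE 0.06, limma adjusted p = 0.0835), MED18 at -0.22 (adjusted p = 0.13), MED28 at -0.14 (0.108), MED4 at -0.13 (0.239) and CCNC at -0.11 (0.208). Without P4P6 replicate 0, 5 members passed against CasVP (MED24 higher, and MED8, MED10, MED20 and MED27 lower), and 765 of all 11572 rows tested did, against 1 with both P4P6 libraries.

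Against the 8 libraries of all other groups, both P4P6 libraries were highest for 4 of 31 members (MED12, MED13L, MED24 and MED25), where 9.99% of all rows had this pattern. They were lowest for 4 members (CCNC, MED18, MED27 and MED4), where 11.6% of all rows did. These are shares close to those of genes in general. MED27, a subunit between head and tail, was at 29.6 and 26.3 FPKM in P4P6 and between 29.7 and 31.9 elsewhere.

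**Figure D4:**
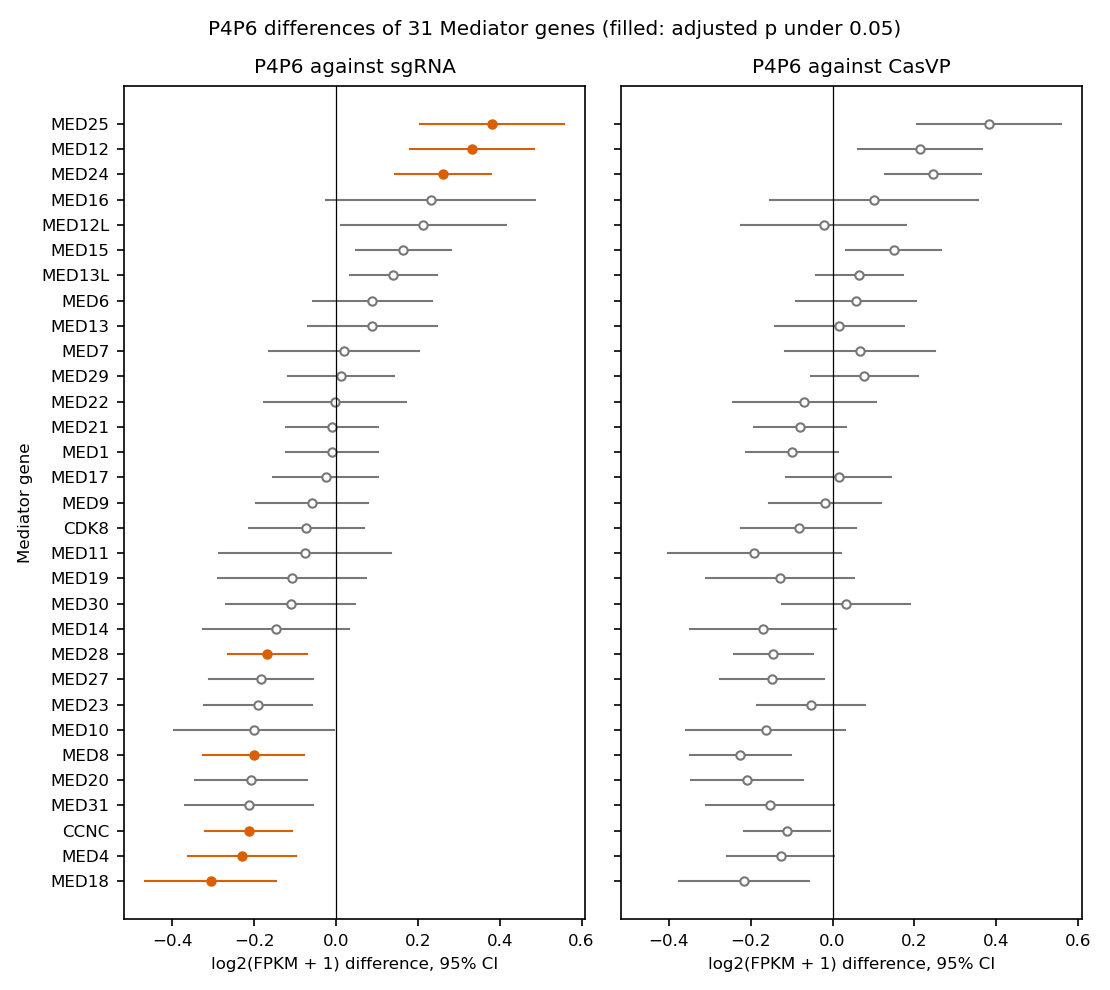
Log2(FPKM + 1) difference of each Mediator gene (point) with its 95% confidence interval (line) for P4P6 against sgRNA and against CasVP, filled where the limma adjusted p was under 0.05. The 8 filled points, from MED18 at -0.31 to MED25 at 0.38, are all in the panel against sgRNA, and both panels share the P4P6 libraries.

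The genes that rose and those that fell differed in base composition. In the principal GENCODE transcript the GC content was 65.4% for MED25, 57.3% for MED24 and 54.5% for MED12. It was 49.5% for MED18, 49.2% for MED8, 44.1% for MED28, 39.0% for CCNC and 36.7% for MED4. The 3 that rose thus all had a higher GC content than the 5 that fell. Over the 31 members the P4P6 minus sgRNA difference correlated with GC content at a Pearson r of 0.49 (Spearman 0.37) and with log2 transcript length at 0.37 (Spearman 0.42). Over the 10887 tested rows with a transcript match, Pearson r was 0.39 for GC content (Spearman 0.39) and 0.30 for length (Spearman 0.30). The split in GC content was not particular to Mediator. Among all matched rows that passed, the median GC content was 58.9% for those that rose and 44.5% for those that fell. These are correlations across genes of the same libraries, and genes are not independent replicates.

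When the trends with GC content and length were removed from every library, 0 of 31 members passed between P4P6 and sgRNA, and 0 of 10887 rows (1957 at an unadjusted p under 0.05). All 8 kept their sign in that fit. MED25 was at 0.25 (limma adjusted p = 0.117), MED12 at 0.21 (0.151), MED24 at 0.18 (0.149), MED18 at -0.24 (0.143) and MED28 at -0.22 (0.0861), while MED8 was at -0.13 (0.209), CCNC at -0.09 (0.395) and MED4 at -0.07 (0.614). The calls were also lost without P4P6 replicate 1 and without either sgRNA library. There the lone library left in the group is assumed to vary like the other groups. They were lost without either CasVP library too. CasVP is not in this comparison, so leaving out 1 of its libraries changed the shared estimate of spread and not the differences. The SD of the replicate difference over all rows was lowest in CasVP (0.10) and highest in P4P6 (0.19). The 8 calls thus did not hold when the shared spread was estimated without a CasVP library. The calls were not all lost without a library of INT or of TOP1, groups that are also outside the comparison. What part the spread of CasVP had in the calls was not tested.

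**Figure D5:**
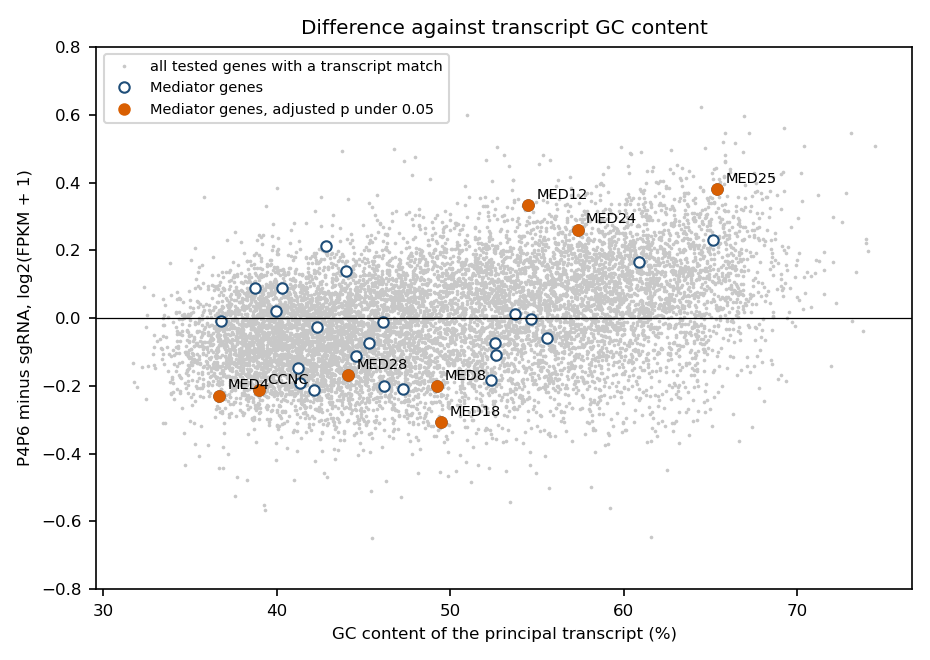
P4P6 minus sgRNA difference on the log2(FPKM + 1) scale against GC content of the principal transcript (%), for tested genes (grey), Mediator genes (open circles) and those with an adjusted p under 0.05 (filled). The filled points above 0 lie at a GC content of 54.5% or more and those below 0 at 49.5% or less, and 5 genes lie beyond the vertical axis limits of -0.8 and 0.8.

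The start regions of genes that passed between P4P6 and sgRNA are shown so that those that rose can be set beside those that fell. RefSeq promoter windows (build GRCh38.p14) were found for 23 of the 31 members and for 6 of the 8 that passed. MED8 and MED28, which fell, had no window, so the set that fell is shown in part. The 250 bases before the annotated start are printed 5′ to 3′ on the strand of the gene, with matches to 6 short motifs in capitals. The core promoter element searched for was the TATA box, written TATAAA. The box bound by the factor NF-Y was searched as CCAAT, and the GC box bound by Sp1 and its relatives as GGGCGG. The motif used for the ETS family of factors was CCGGAAG, the one used for the factor NRF1 was GCGCATGC, and the one used for the factor YY1 was AAGATGGC. Both strands were searched, so the reverse complement is also in capitals. The windows are chr19:49818039-49818288 on the plus strand for MED25, chrX:71118346-71118595 on the plus strand for MED12 and chr17:40054409-40054658 on the minus strand for MED24, the genes that rose. They are chr1:28328790-28329039 on the plus strand for MED18, chr13:48095105-48095354 on the minus strand for MED4 and, for the upstream of 2 annotated starts, chr6:99568815-99569064 on the minus strand for CCNC, which fell.
MED25: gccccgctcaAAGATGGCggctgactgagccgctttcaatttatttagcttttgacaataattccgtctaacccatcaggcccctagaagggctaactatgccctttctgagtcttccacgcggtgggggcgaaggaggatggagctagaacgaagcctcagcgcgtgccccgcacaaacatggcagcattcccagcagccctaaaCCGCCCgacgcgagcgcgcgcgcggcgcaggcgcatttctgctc
MED12: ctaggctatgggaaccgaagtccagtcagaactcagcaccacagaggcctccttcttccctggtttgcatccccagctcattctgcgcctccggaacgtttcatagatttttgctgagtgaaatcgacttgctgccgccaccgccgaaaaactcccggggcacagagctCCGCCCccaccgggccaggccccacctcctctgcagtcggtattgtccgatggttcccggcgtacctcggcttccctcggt
MED24: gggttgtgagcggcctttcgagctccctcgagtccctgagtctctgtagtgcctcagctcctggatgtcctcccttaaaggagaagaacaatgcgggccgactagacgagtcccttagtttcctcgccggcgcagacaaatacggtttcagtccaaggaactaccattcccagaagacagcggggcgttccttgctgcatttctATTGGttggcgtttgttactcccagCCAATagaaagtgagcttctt
MED18: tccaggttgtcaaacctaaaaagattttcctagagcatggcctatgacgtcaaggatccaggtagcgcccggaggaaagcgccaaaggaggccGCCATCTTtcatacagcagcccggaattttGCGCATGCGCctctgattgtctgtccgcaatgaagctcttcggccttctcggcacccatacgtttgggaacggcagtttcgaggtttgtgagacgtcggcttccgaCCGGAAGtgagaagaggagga
MED4: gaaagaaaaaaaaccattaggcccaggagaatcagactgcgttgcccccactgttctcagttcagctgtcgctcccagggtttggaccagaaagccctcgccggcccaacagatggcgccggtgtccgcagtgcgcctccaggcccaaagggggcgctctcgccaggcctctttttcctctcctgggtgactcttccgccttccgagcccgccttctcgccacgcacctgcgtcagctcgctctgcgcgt
CCNC: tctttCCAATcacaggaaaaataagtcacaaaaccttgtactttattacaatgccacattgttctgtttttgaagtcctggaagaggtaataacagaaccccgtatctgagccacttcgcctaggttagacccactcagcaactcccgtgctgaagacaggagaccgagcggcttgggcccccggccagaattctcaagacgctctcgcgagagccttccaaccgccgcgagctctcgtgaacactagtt

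No motif was common to the genes that rose. The MED25 window held 1 GC box and 1 YY1 match, that of MED12 1 GC box, and that of MED24 2 NF-Y boxes and no GC box. Of the genes that fell and had a window, MED18 held 1 ETS match, 1 YY1 match and overlapping NRF1 matches. CCNC held 1 NF-Y box, and MED4 held none of these motifs. A GC box was present in 42.6% of all 35116 windows of this length, the NF-Y box in 32.0%, the TATA box in 10.7%, the ETS motif in 8.52%, the NRF1 motif in 2.63% and the YY1 motif in 1.36%. Among the 26 windows of Mediator genes, GC boxes were in 14, the NF-Y box in 10, the ETS motif in 6, the TATA box in 2, YY1 in 2 and NRF1 in 1. A match is a description of these letters and not evidence of binding.

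The genes that work beside Mediator were read from the same fit. None of the 12 RNA polymerase II subunit genes passed in any comparison with CasVP. P4P6 against sgRNA gave 1 that rose and 2 that fell, where 4.33% of all rows rose and 7.17% fell. Of the 31 Mediator genes, 3 rose and 5 fell. POLR2A, the catalytic subunit, was at 55.9 and 54.0 FPKM in P4P6 and 43.6 and 45.2 in sgRNA (0.30, SE 0.04, limma adjusted p = 0.0221). POLR2G and POLR2K, small subunits, were at 103 and 88.6 against 117 and 117 FPKM (-0.29, SE 0.06, adjusted p = 0.0279) and at 62.3 and 60.3 against 74.4 and 73.0 FPKM (-0.26, adjusted p = 0.0259). In all 3 genes the P4P6 and sgRNA libraries were apart.

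Of 22 pausing and elongation genes, 21 were tested. MLLT1 and SUPT5H rose in P4P6 against sgRNA and CCNT1 and MNAT1 fell, and none passed against CasVP. Over all rows 4.33% rose and 7.17% fell in P4P6 against sgRNA. CCNT1, the cyclin of the elongation kinase P-TEFb, was at 21.3 and 22.7 FPKM in P4P6 and 25.9 and 24.9 in sgRNA (-0.20, SE 0.05, limma adjusted p = 0.0382). Of 10 coactivator and cohesin genes, 9 were tested, 2 rose and 0 fell against sgRNA. These were the acetyltransferases CREBBP, at 22.8 and 22.5 against 16.9 and 18.0 FPKM (0.36, SE 0.05, adjusted p = 0.0221), and EP300, at 24.4 and 27.2 against 19.9 and 20.7 FPKM (0.33, SE 0.06, adjusted p = 0.025). With the GC and length trends removed none of these rows passed. The median difference was -0.10 for the polymerase genes, 0.05 for the elongation genes and 0.02 for the coactivators, against -0.01 over all rows.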

How the data were processed

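mRNA was sequenced in 10 libraries, for which the authors deposited a table of FPKM values. Cuffdiff 2.2.1, TopHat2 2.0.13 and the build hg19 are named per the submitters' processing notes. What each tool did, which annotation was used and how libraries were scaled is not given in the sources used here. Of 20246 rows, 945 without a gene name (2.31 to 2.47% of summed FPKM) were left out. Values were transformed as log2(FPKM + 1), and rows with a mean of at least 1 FPKM (11574) were fitted with limma 3.58.1 in R 4.3.3, all libraries together with an intensity trend and 5 residual degrees of freedom. P-values are two-sided, adjusted by Benjamini-Hochberg over all rows of a comparison, with a threshold of 0.05. Groups came from the sample titles. Depth limits precision but total reads are unknown.

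The members, lists and alternatives were chosen with earlier results of these data known. Values in every library are given for members that passed in any of 8 comparisons, the highest and lowest 2 per guide against CasVP, paralogs, MED14, MED1, known activator contacts, and the extremes of level and range. Ranges are given for the rest. Each library was left out in turn, and the other alternatives were no intensity trend, a replicate block on the column index, quantile normalization, rescaling by median of ratios, no filter or a mean of at least 5 FPKM, and 0.1 as pseudocount. Removal of GC and length trends (splines, 4 degrees of freedom each) was added after seeing the data. It used APPRIS principal transcripts of GENCODE 29, which matched 94.1% of tested rows and all 31 members but not the reporter.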

Additional observations from a re-analysis of the deposited data

How the results depend on the processing

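For P4P6 against sgRNA the count of Mediator genes that passed was 8. It was 5 with no filter, 4 with quantile normalization, 4 with no intensity trend, 13 with a replicate block and 0 with length and GC trends removed. It ranged from 0 to 10 when a library of these groups was left out, and the sign of all 8 held in each of these fits. For P4P6 against CasVP the count was 0, and it was 3 with a replicate block (MED24, MED25 and MED8, limma adjusted p = 0.0378 for each) and 0 to 5 when a library of these groups was left out. In the other 6 comparisons it was 0 under every alternative run. Over all rows, P4P6 against sgRNA gave 1331, and 641 with no filter, 388 with quantile normalization, 668 with no trend, 2326 with a replicate block, 0 with the trends removed and 1 to 2045 with a library left out. P4P6 against CasVP gave 1 row, 7 with quantile normalization, 600 with the replicate block and 1 to 765 with a library left out. In the other comparisons counts stayed between 0 and 3. Index 0 minus index 1 differences correlated at -0.04 to 0.42 over the 10 pairs of groups, above 0.1 in 8, with 0.29 for P4P6 and CasVP and 0.42 for P4P6 and sgRNA. The labels do not say what the index marks and not every pair was above 0.1, so the fit without the block was kept; whether libraries of the same index share a source is unknown. Depth is unknown, so no counting interval is given.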
